A study of Homo sapiens with 6 samples.

Results

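The 10 genes described here encode SR splicing factors and were chosen by name: SRSF1, SRSF2, SRSF3, SRSF4, SRSF5, SRSF6, SRSF7, SRSF9, SRSF10 and SRSF11. They are 10 of 20162 protein-coding genes of the annotation. A site belonged to a gene if it lay on the gene's strand within its GENCODE span on GRCh37/hg19, and 4676 of 10639684 sites met this rule over the 6 libraries. No measured value entered this choice by name, but earlier results of these data were known when it was made.

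SR proteins carry an RNA recognition motif and a domain rich in arginine and serine, and they mark exons for the spliceosome. Their activity and location are set by phosphorylation of the serines, and several of them shuttle between nucleus and cytoplasm. SR genes are known for poison exons, which are cassette exons that bring in an early stop codon, so that the transcript that includes them is degraded by nonsense-mediated decay.

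All 6 libraries came from HEK293, a human embryonic kidney line, grown with 4-thiouridine (4SU) and irradiated at 365 nm, and all RNA was cut with RNase T1. In PAR-CLIP, 4SU that is crosslinked to protein is read as C in place of T, so T-to-C conversions are taken as a mark of crosslinked RNA. The paper states that 4SU RNA without a crosslink is converted too, at a lower rate. The background libraries G20, G35 and G45 are 3 slices, at about 20, 35 and 45 kDa, of the gel of a FLAG M2 immunoprecipitation of FLAG-tagged GFP, which is not an RNA-binding protein. They are parts of a gel and not replicate cultures. HuR replicates 1 and 2 are FLAG M2 immunoprecipitations of FLAG-tagged HuR, the ELAVL1 protein, which binds U-rich RNA in 3'UTRs and introns. Total is a single library of lysate RNA that was never immunoprecipitated, freed of protein with proteinase K and of rRNA with RiboZero. Both tagged proteins were expressed from inducible transgenes in stable lines. Whether the 2 HuR replicates came from separate cultures is not given in the sources used here, so p-values measure only the spread between these libraries.

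The libraries held between 6187300 (G35) and 38644636 (G20) reads at sites, and the SR genes held 2721 reads in G20, 692 in G35, 814 in G45, 3456 in HuR replicate 1, 38968 in HuR replicate 2 and 20836 in Total. The 10 most read sites took 90.6% of all sense reads in protein-coding genes in G20. The other slices had 37.7% (G35) and 38.0% (G45) there, and no other library more than 10.8%. HuR replicate 1 was thin as well, with 75.4% of its sites holding 1 read, against 13.4% in replicate 2. Of 5 markers of HEK293 cells, between 1 (G35) and 5 had exon reads, and the 6 markers of other cell types summed to 1 to 66 exon reads. Of these HBG1, HBB and CD3E were at 0 in every library, PTPRC had at most 11 reads, COL1A1 at most 22 and ALB at most 41.

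The sequences that carry the main contrast are given first, as windows of 30 bases on the transcribed strand of GRCh37 with runs of 3 or more T in capitals. Each is centred on the base with the strongest conversion signal of the most read cluster of the authors within a locus, a locus being the merged overlapping sites of the 6 libraries. The reads given beside a sequence are those of its whole locus. The windows shown were picked from the most read loci of each gene after their values were seen. The first set holds loci in introns and 3'UTRs with many reads in HuR replicate 2 and few or none in the background slices. It ends with SRSF3 intron 3 because not all of them were rich in U.
SRSF4 intron 1, chr1:29496670-29496699, minus strand: cccTTTTTTgaaagcTTTcaaTTTcaTTTa
SRSF10 intron 4, chr1:24298234-24298263, minus strand: atacTTTTaattatatacattgaatgTTTc
SRSF11 intron 1, chr1:70689396-70689425, plus strand: ggctacTTTTaTTTacttgatgttgcaTTT
SRSF6 3'UTR, chr20:42090007-42090036, plus strand: TTTTTTTTagtaTTTcagcaggatctgctg
SRSF9 3'UTR, chr12:120899716-120899745, minus strand: gaggaTTTagtgtcttaggaaaTTTTTTTa
SRSF3 intron 3, chr6:36568827-36568856, plus strand: gcacattcactgggcccaacagtgagattg

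The SRSF4 site had 0 reads in each slice, 21 and 269 in the HuR replicates and 4 in Total. The SRSF10 site likewise had 0 in each slice, with 19 and 263 in HuR and 9 in Total. At the SRSF11 site the slices held 4, 0 and 0 reads, HuR 24 and 420, and Total 6. These 3 intron sites were close to empty in Total too. The 3'UTR site of SRSF6 had 2, 10 and 9 reads in the slices, 12 and 714 in HuR and 6 in Total. That of SRSF9 had 2, 8 and 3, then 15 and 666, then 43. In these 3'UTR sites replicate 1 had 12 and 15 reads of 4207440 sense reads in protein-coding genes. G35 had 10 and 8 of 2382244, so the contrast at both sites rested on replicate 2. The SRSF3 intron site, whose window has no run of 3 T, had 1, 3 and 1, then 44 and 299, then 0. Levels are in RPM, reads per 1000000 sense reads in protein-coding genes. A library with 0 reads at a site still allows up to 3 reads, which is 1.26 RPM in G35, the thinnest slice, and 0.145 RPM in G20. In G20 the 10 most read sites took 90.6% of those sense reads. Its lower value thus does not mean that other sites were read more deeply.

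The second set holds the loci with the highest mean RPM over the 3 slices in SRSF2, SRSF9, SRSF3 and SRSF11. They are shown because their windows lie in coding sequence or a 5'UTR and have no run of 3 T. The loci also had few HuR reads. Each locus is longer than its window, and that of SRSF9 runs into the 5'UTR.
SRSF2 coding, chr17:74732493-74732522, minus strand: atcccggagtcggagtcgttccaggtctcg
SRSF9 coding, chr12:120907298-120907327, minus strand: acttggaggacctgttctacaagtacggcc
SRSF3 5'UTR, chr6:36562182-36562211, plus strand: gttgggccggaggaaagcgggaagactcat
SRSF11 coding, chr1:70716068-70716097, plus strand: aagataaagacaaagaaagaagtagggatg

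The SRSF2 site held 107, 25 and 13 reads in G20, G35 and G45, 6 and 22 in the HuR replicates and 174 in Total. The SRSF9 site held 168, 7 and 8, then 3 and 19, then 120. At the SRSF3 site the counts were 84, 19 and 13 in the slices, 3 and 20 in HuR and 53 in Total. The SRSF11 site had 20, 8 and 8 in the slices but 0 and 2 in HuR and 2 in Total. In SRSF2 another coding locus, with 193, 7 and 22 slice reads, held more reads but a slightly lower mean RPM (6.70 against 6.76). Not every background site was of this kind: the locus with the highest mean slice RPM in SRSF4, at chr1:29499493-29499522, was an intronic U-rich stretch with 0, 11 and 17 reads in the slices, 11 and 170 in HuR and 5 in Total. In raw reads the SRSF4 locus with more was in coding sequence, with 51, 8 and 4 in the slices.
SRSF4 intron 1, minus strand: aTTTTgtgtcacgcTTTTTTTacttaaTTT

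The question put to the region shares was where along these transcripts each kind of library placed its reads. Coding sequence held 58.6% (95% Wilson interval 56.5 to 60.6) of the SR genes' exonic reads in G20, 34.3% (30.2 to 38.8) in G35 and 45.4% (41.2 to 49.6) in G45. In HuR it held 6.0% (4.9 to 7.3) in replicate 1 and 3.7% (3.4 to 4.0) in replicate 2, and in Total 32.1% (31.3 to 32.8). The HuR mean of 4.85% ± 1.62 (SD, n = 2) lay 41.2 percentage points under the background mean of 46.1%, and the libraries of the groups did not overlap. The two-sided exact permutation test gave p = 0.2, the smallest that 2 against 3 libraries allow. These intervals and all others cover counting error only, since PCR reads are not independent molecules.

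The 3'UTRs mirrored this. They took 28.4%, 60.4% and 47.6% of exonic reads in the slices, 93.2% and 96.0% in HuR and 63.9% in Total. The 5'UTRs took 13%, 5.22% and 6.97% in the slices, 0.837% and 0.327% in HuR, and 4.05% in Total. The exonic HuR reads of the SR genes were thus almost wholly 3'UTR reads.

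Over all protein-coding genes the coding share was 65.9%, 67.0% and 62.8% in the slices, 51.4% and 12.0% in HuR and 60.0% in Total. The SR genes were below it in all 6 libraries, by little in G20 and by the most in HuR replicate 1. These shares take no account of region length, and the lengths in the SR genes were not compared with those of all genes. That replicate differed from replicate 2 over all genes (51.4% against 12.0%) but hardly in the SR genes (6.0% against 3.7%). The wide gap in replicate 1 thus went with its high all-gene value. Its 10 most read sites held 7.71% of all sense reads in protein-coding genes, and their part in that value was not tested.

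Introns went the other way. Of the SR genes' reads in coding, UTR and intron sequence, introns held 17.0%, 32.4% and 32.2% in the slices, 56.1% and 49.6% in HuR and 24.3% in Total. The HuR mean of 52.8% ± 4.57 (SD, n = 2) was 25.7 percentage points above the background mean (exact permutation p = 0.2). Across all protein-coding genes introns held far more in the slices (96.1%, 82.8% and 86.9%), in HuR (83.5% and 85.5%) and in Total (49.9%). Intron length was not taken into account here either. The all-gene value of G20 includes its own 10 most read sites, and their part in it was not tested.

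**Figure D1:**
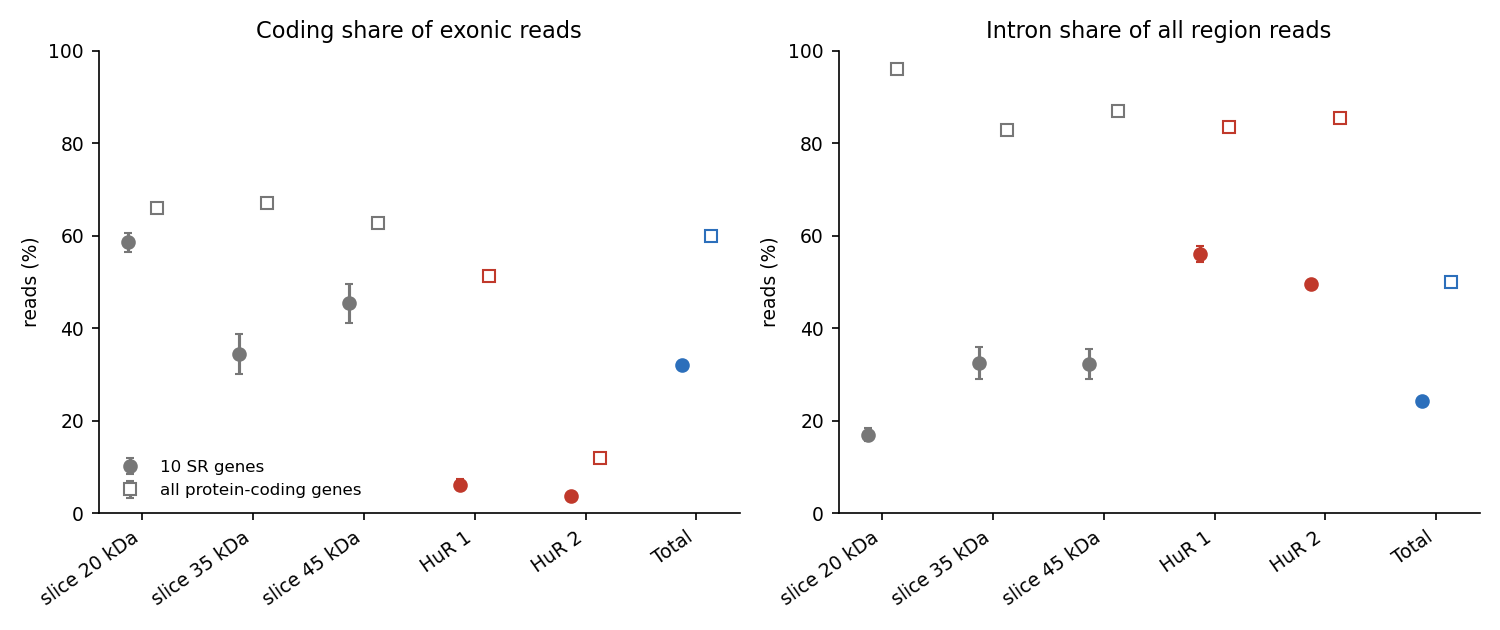
Coding share of exonic reads (left, %) and intron share of reads in coding, UTR and intron sequence (right, %) in each library. Filled circles are the 10 SR genes with 95% Wilson intervals, open squares all protein-coding genes. In the SR genes both HuR replicates sit at 6.0% and 3.7% coding, below the slices at 34.3% to 58.6%, and at 56.1% and 49.6% intron, above the slices at 17.0% to 32.4%.

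Each gene showed the drop in coding share: in all 10 genes both HuR replicates were below all 3 slices. SRSF4 (chr1:29474255-29508412), a regulator of splice site choice, had 86.4%, 60.5% and 69.2% in the slices, 14.3% and 3.7% in HuR and 75.0% in Total. SRSF2 (chr17:74730197-74733415), which has both nuclear splicing and transcription roles, had 54.4%, 65.3% and 63.6%, then 13.5% and 4.1%, then 28.6%. SRSF7 (chr2:38970741-38978636), a shuttling protein and mRNA export adaptor, had 82.2%, 26.1% and 84.3%, then 9.8% and 3.3%, then 21.6%. In each of these 3 genes the slices lay well above both HuR replicates, on few reads in G35 and G45.

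SRSF9 (chr12:120899475-120933749) had the highest coding share in G20, both HuR replicates and Total. SRSF5 (chr14:70193617-70238722) was higher in G35 and G45, on 11 and 13 exonic reads, as was SRSF7 in G45. SRSF9 had 98.8% coding in G20, 68.0% in G35, 70.8% in G45, 48.5% and 20.9% in HuR, and 97.6% in Total. In RPM per kb of sequence, SRSF9 coding sequence also had the highest level of the 10 genes in Total (432) and in both HuR replicates (11.5 and 15.6). SRSF1 (chr17:56078280-56084707), a regulator of splicing, export and translation, was among the lowest, with 26.3%, 7.8% and 23% in the slices, 1.5% and 1.5% in HuR and 6.3% in Total. Its 3'UTR held 163, 106 and 95 reads in the slices, 575 and 5953 in HuR and 3816 in Total, the most 3'UTR reads of any member in both HuR replicates and in Total. In Total the coding share of SRSF3 (4.0%) lay between its 2 HuR values and that of SRSF5 (10.3%) just under them, and the other 8 genes were above both. Shares of single genes also depend on region length. Coding sequence and 3'UTR have 663 and 350 bp in SRSF9 but 744 and 4490 bp in SRSF1.

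**Figure D2:**
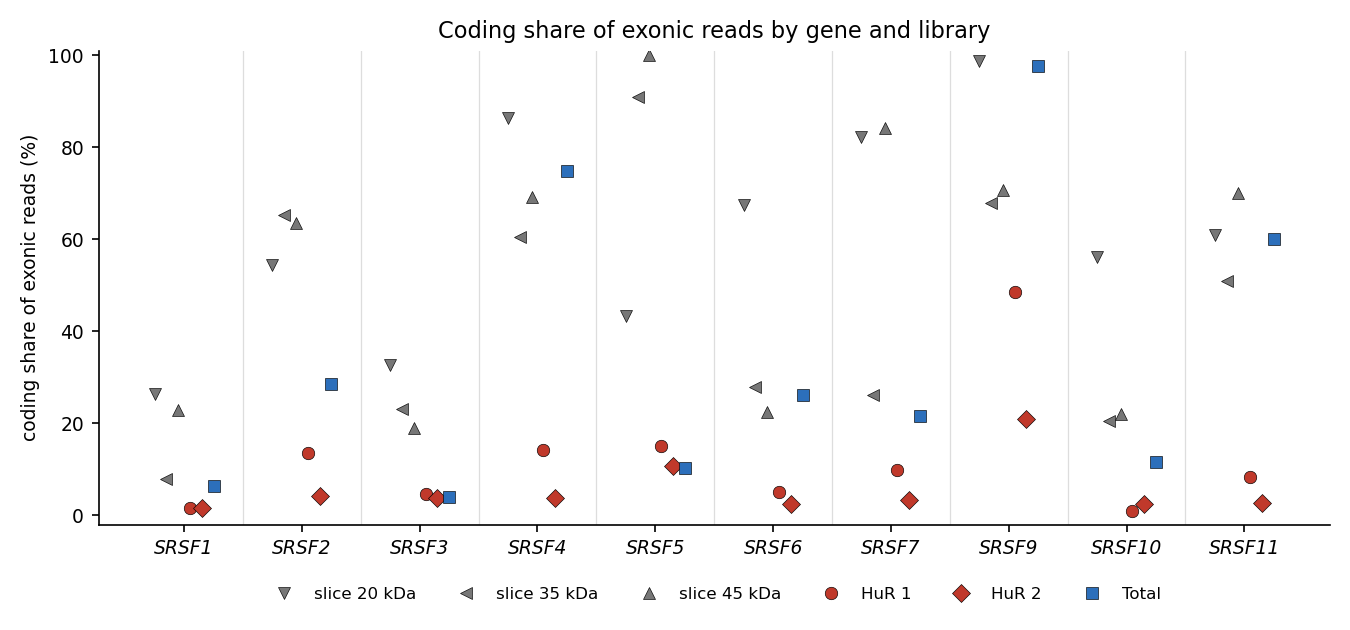
Coding share of exonic reads (%, vertical axis) for each SR gene, with 1 symbol per library: grey triangles for the slices, red circle and diamond for HuR replicates 1 and 2, blue square for Total. In each gene the red symbols lie under all grey ones, and SRSF9 lies highest in Total, at 97.6%.

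Within 3'UTRs the densest gene depended on the library. SRSF1 led in HuR replicate 1 (30.4 RPM per kb) and in Total (98.1), and SRSF9 led in HuR replicate 2 (111), where SRSF11 was lowest (19.3). In Total SRSF9 was lowest, at 17.8, so its 3'UTR was the most read of the 10 in HuR replicate 2 and the least read in total RNA. The SRSF9 3'UTR held 3, 8 and 3 reads in the slices, 34 and 854 in HuR and 54 in Total, and 666 of the 854 came from the single U-rich site printed above. Its neighbours in that order were not tested against each other.

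For 5'UTRs, SRSF3 (chr6:36562130-36573377), an mRNA export adaptor, was densest in all 3 slices, at 33.2, 65.4 and 38.0 RPM per kb. Those reads, 84, 19 and 13, came from the one 5'UTR site printed above. In Total it was SRSF5 that led, with 332 reads in its 5'UTR against 23, 1 and 0 in the slices and 3 and 12 in HuR.

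The next question was which of these regions differed between libraries beyond their spread, in a fit over all protein-coding genes. Reads per gene and region (41043 features with at least 20 reads) were tested with edgeR's quasi-likelihood test, and of 38 SR features 2 were higher and 5 lower in HuR than in the background slices at an adjusted p under 0.05, against 7.66% of all features called in either direction. At an unadjusted p under 0.05 there were 25 of 38, against 27.4% of all features.

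In coding sequence 4 of 10 SR genes were lower in HuR and 0 higher, where 12.7% of all coding features were called lower. SRSF4 coding had 185, 23 and 27 reads in the slices, 3 and 13 in HuR and 446 in Total, a log2 fold change of -5.82 (SE 1.11, adjusted p = 0.00183). SRSF2 had 300, 32 and 35, then 7 and 34, then 308, for -5.10 (SE 1.02, adjusted p = 0.0024). SRSF11 (chr1:70671365-70718735), an SR-related protein, had 115, 26 and 42, then 7 and 27, then 767, for -4.44 (SE 0.98, adjusted p = 0.00468). SRSF7 had 83, 6 and 43, then 5 and 39, then 140, for -3.93 (SE 1.14, adjusted p = 0.0288).

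All 10 coding sequences had an unadjusted p under 0.05, where 34.6% of all coding features did, and the 6 that missed the adjusted threshold ran from -3.45 for SRSF5 to -2.16 for SRSF9. Of the 10 coding estimates, all were negative with TMM factors and with DESeq2, and SRSF9 alone turned to 0.04 with no TMM factors. Their median of -3.21 stood beside -2.66 over all coding features, so lower coding reads in HuR were not particular to the SR genes.

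In 5'UTRs SRSF3 was lower in HuR, with 84, 19 and 13 reads in the slices, 3 and 20 in HuR and 53 in Total (log2 fold change -4.52, SE 1.28, adjusted p = 0.0246). The 5'UTRs of SRSF9 and SRSF10 had too few reads to be tested. SRSF3 was 1 of 8, where 4.96% of all 5'UTR features were called lower. The 8 estimates had a median of -4.67, beside -3.49 over all 5'UTR features.

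Intron reads were higher in HuR for 2 of 10 genes, where 5.59% of all intron features were called higher. SRSF11 introns had 43, 14 and 44 reads in the slices, 506 and 5212 in HuR and 1035 in Total (log2 fold change 3.14, SE 0.75, adjusted p = 0.00846). SRSF3 introns had 26, 21 and 26, then 269 and 2010, then 948 (2.39, SE 0.73, adjusted p = 0.0373). SRSF4 introns held the most reads of any member, 166, 112 and 88 in the slices, 577 and 6541 in HuR and 1418 in Total, with an estimate of 1.58 that did not pass (SE 0.73, adjusted p = 0.152).

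None of the 10 SR 3'UTRs was called, where 2.94% of all 3'UTR features were, although 6 had an unadjusted p under 0.05, against 17.7% of them. Their median was 1.49, beside 0.70 over all 3'UTR features, and the estimates ran from -0.74 for SRSF2 to 2.86 for SRSF9. SRSF10 (chr1:24290837-24307417), which acts as a splicing repressor once dephosphorylated, came nearest to a call. Its 3'UTR had 38, 39 and 31 reads in the slices, 214 and 3118 in HuR and 1506 in Total (2.06, SE 0.73, adjusted p = 0.0681). SRSF6 (chr20:42086533-42094686) had 48, 28 and 55, then 188 and 2382, then 561 (1.48, SE 0.73). The signs of SRSF2 and SRSF5, the only negative ones, turned positive with no TMM factors, and that of SRSF5 also with DESeq2.

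**Figure D3:**
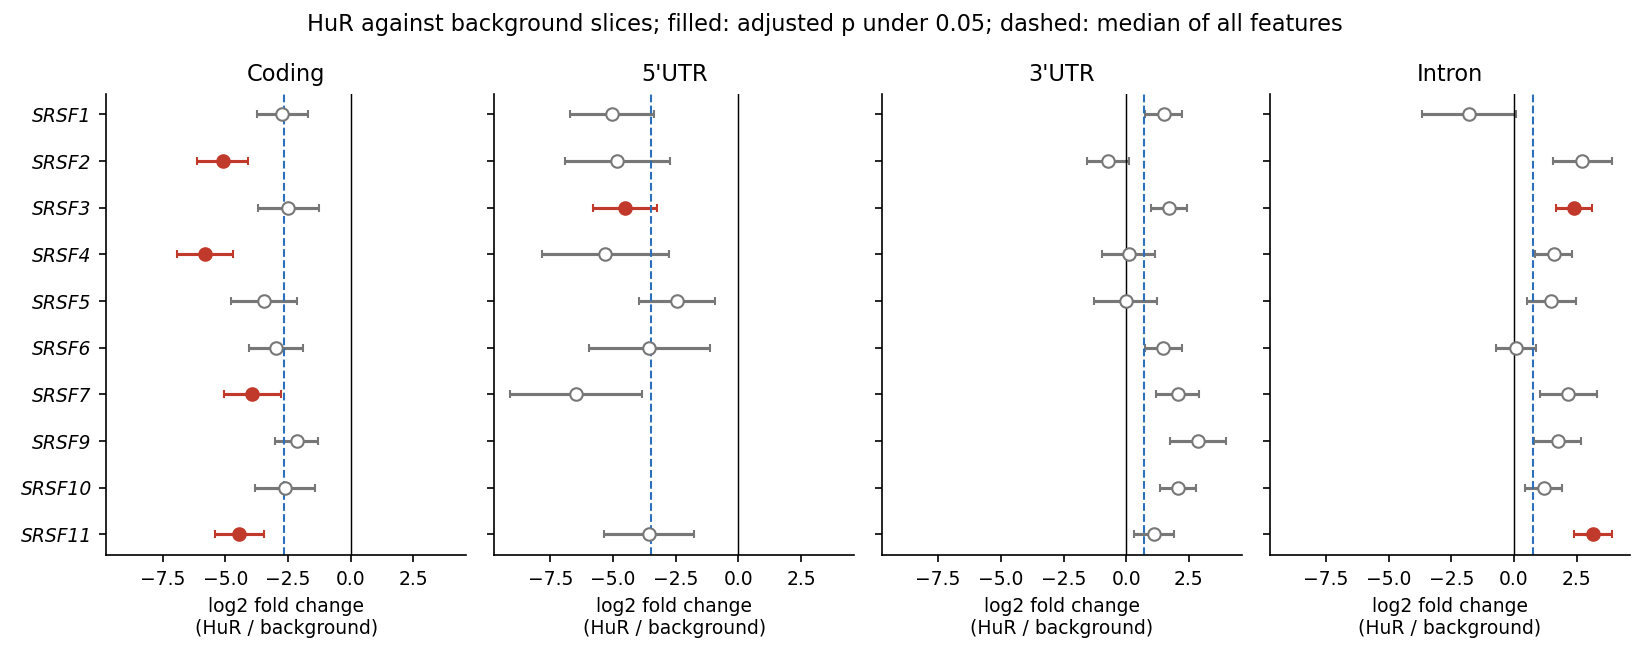
Log2 fold change of HuR over the background slices (horizontal axis) for each SR gene in 4 panels, with bars of 1 SE. Filled red points passed an adjusted p under 0.05, and the dashed line is the median of all features of that kind, -2.66 in coding and 0.70 in 3'UTR features. Coding and 5'UTR points lie left of 0, and 3'UTR and intron points lie mostly right of it; without TMM factors the signs of SRSF9 coding and of the SRSF2 and SRSF5 3'UTRs turned positive.

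These calls depended on scale and depth, and none of them held with sites of at least 5 reads or with clusters. Without TMM factors the median of all 41043 features moved from -0.40 to 1.08, and 1 SR feature was called higher and 0 lower. With DESeq2 the SR calls were 9 higher and 7 lower, and over all features 4122 higher and 3499 lower, against 1118 and 2025 with edgeR. Leaving out HuR replicate 2 left 0 SR calls and leaving out replicate 1 left 1. Without G20 there were 5 higher and 3 lower. The share of all features called with a library left out is not given here. Whether the SR calls changed apart from the whole fit cannot be read from these counts.

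Against Total, which shares the HuR libraries with the comparison above, 4 SR coding sequences were lower in HuR, where 11.6% of coding features were called lower, and no other SR feature was called (4.43% of all features in either direction). SRSF4 (-5.75, SE 1.19, adjusted p = 0.00324), SRSF11 (-5.36, SE 1.10, adjusted p = 0.00304) and SRSF2 (-3.89, SE 1.07, adjusted p = 0.0261) were among them. SRSF9 was the fourth. Its coding sequence held 241, 17 and 17 reads in the slices, 32 and 227 in HuR and 2482 in Total, and the estimate was -4.43 (SE 1.06, adjusted p = 0.00988). The spread of the single Total library was taken from the other groups.

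Between the background slices and Total, which share libraries with the comparisons above, 1 of 38 SR features was called, against 1.05% of all features. The SRSF3 3'UTR was lower in the slices (40, 24 and 21 reads) than in Total (1986), by -3.26 on the log2 scale (SE 0.84, adjusted p = 0.0398), where 0.541% of 3'UTR features were called lower. All 10 SR 3'UTR estimates were negative here with TMM factors, with DESeq2 and with no TMM factors, with a median of -1.06 beside -1.47 over all 3'UTR features. The SRSF3 call itself was lost with DESeq2, with sites of at least 5 reads, with clusters and with all coding transcripts.

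As a whole, the SR genes made up 131, 290 and 290 RPM in the slices, 821 and 1776 in HuR and 2405 in Total. HuR was 5.47-fold above the background by these means. Scaled by the TMM factors, in RPM of effective reads, the same genes had 688, 329 and 380 in the slices, 626 and 991 in HuR and 1051 in Total, a fold of 1.74 with G20 above HuR replicate 1. In bulk libraries, fewer cells with a transcript and less of it per cell cannot be told apart.

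The canonical transcripts of the SR genes have 53 introns. An intron was set apart as a poison intron if an exon of a transcript annotated as a target of nonsense-mediated decay lay wholly inside it. By this rule 12 introns of 8 genes held poison exons, and 31 introns of the same genes did not. SRSF1 and SRSF5 had none, since no exon of their 3 and 1 decay transcripts lay within an intron. The rule does not check whether such an exon is a cassette exon or brings in an early stop codon. Below, every exon that met the rule is called a poison exon. Conservation was not measured.

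Summed over the 8 genes, poison introns were more densely read than the other introns in every library. The ratio of reads per kb was 4.15 (95% interval 3.29 to 5.27) in G20, 3.01 (2.22 to 4.11) in G35, 2.55 (1.92 to 3.41) in G45, 2.49 (2.26 to 2.76) and 2.24 (2.17 to 2.31) in HuR, and 3.63 (3.40 to 3.88) in Total. Both HuR ratios were below those of the slices and Total, though their intervals overlapped those of G35 and G45. The 21128 bp of SRSF4 intron 1 gave the most reads, and without it the ratios were 4.34, 2.19 and 2.54 in the slices, 2.82 and 2.19 in HuR and 4.89 in Total.

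With sites of at least 5 reads the G20 ratio was 34.8, on 5 reads in the other introns, and with clusters G35 had 7.55 and G45 16.4, on 13 and 6 such reads. The genes differed in this ratio, and it was under 1 in some slices, such as 0.854 for SRSF3 in G20 and 0.929 for SRSF10 in G35. In Total it was 12.9 for SRSF6, 11.6 for SRSF7, 10.1 for SRSF4, 4.3 for SRSF3, 3.61 for SRSF10, 2.70 for SRSF9 and 2.58 for SRSF11. In HuR it was 2.17 and 1.10 for SRSF7, 1.53 and 1.26 for SRSF3, 2.03 and 1.35 for SRSF10, 1.58 and 0.979 for SRSF9 and 8.45 and 7.84 for SRSF4, each below its Total value. SRSF6 had 15.3 in replicate 1, above Total, and 4.53 in replicate 2, below it, and SRSF11 had 2.94 and 2.67, both above. Some of these ratios rest on few reads. The other introns of SRSF6 held at most 2 reads each in replicate 1 and 5 in Total. Those of SRSF7 held at most 4 each in replicate 1. The order of the genes and libraries was not tested. Intron 2 of SRSF2 is also part of an exon of another coding transcript, so its 59 and 493 HuR reads and 151 Total reads cannot be told apart from exon reads. Leaving it out gave 2.43 and 2.19 in HuR and 3.56 in Total.

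Inside the poison introns, HuR and Total placed their reads differently. The exons themselves cover 8.0% of the 12 introns' length. They held 22.2% (20.8 to 23.5) of the introns' reads in Total, 4.9% (3.8 to 6.3) and 5.0% (4.6 to 5.4) in the HuR replicates, and 17.0% (13.3 to 21.6), 3.3% (1.4 to 7.6) and 9.1% (5.5 to 14.7) in G20, G35 and G45. In Total the exons were thus over-represented for their length and in both HuR replicates under-represented. Total has no replicate, so the difference rests on its counting interval.

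**Figure D4:**
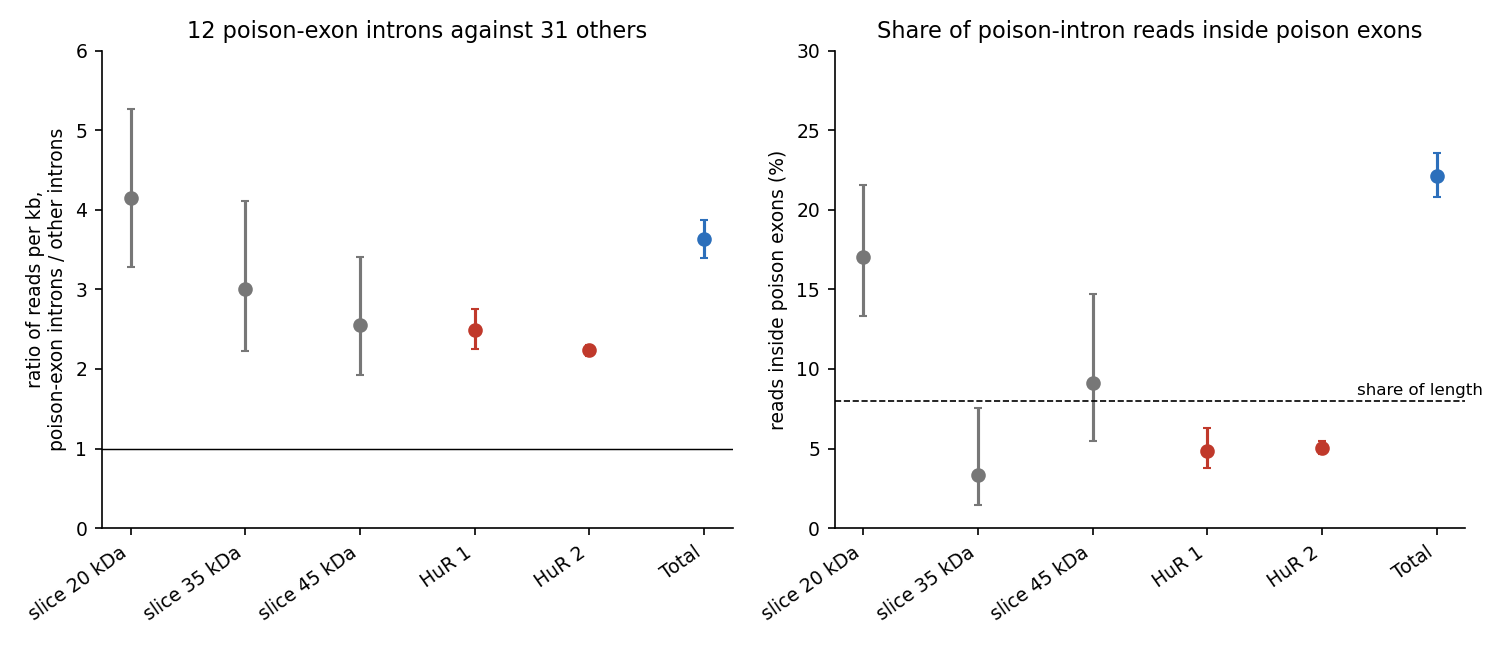
Left, ratio of reads per kb in the 12 poison introns to the 31 other introns of the same 8 genes, with the line at 1 marking equal density. Right, share of poison-intron reads inside the poison exons (%), with the dashed line at their 8.0% share of length. Bars are 95% intervals of counting error. Every ratio is above 1, and on the right Total at 22.2% lies above both HuR replicates, at 4.9% and 5.0%.

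The introns of 3 genes held most of the exon reads of Total. In SRSF3 intron 3, with its poison exon at chr6:36567598-36568053, 425 of 779 Total reads (54.6%) fell in the exon, against 17 of 154 and 49 of 961 in HuR. In SRSF6 intron 2, with its exon at chr20:42087793-42088060, it was 154 of 243 (63.4%), against 7 of 79 and 23 of 545. In SRSF7 intron 3, with its exon at chr2:38976040-38976488, it was 97 of 181 (53.6%), against 5 of 7 and 37 of 138. That last exon makes up 51.3% of its intron's length, so its share in Total was near its share of length, whereas the SRSF3 and SRSF6 exons make up 21.0% and 21.3%. The slices rest on few exon reads: with sites of at least 5 reads their shares were 10.7%, 0% and 0%, and with clusters 0% in all 3. Without SRSF3 intron 3 the share in Total fell to 13.1%, against 3.9% and 5.0% in HuR.

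The most read Total sites of the SRSF3 and SRSF6 exons are printed because they show exonic sequence that HuR libraries almost lacked. The SRSF3 site had 1, 0 and 0 reads in the slices, 0 and 5 in HuR and 137 in Total, and the SRSF6 site 3, 4 and 0, then 0 and 4, then 149. The third sequence is from SRSF11 intron 2, where the window is a pyrimidine stretch that ends ahead of a poison exon at chr1:70696240-70696301. Its locus runs into that exon and had 5, 0 and 2 reads in the slices, 22 and 326 in HuR and 32 in Total.
SRSF3 poison exon, chr6:36567898-36567927, plus strand: tcggctaacaaaaaagcaggaaaaatccac
SRSF6 poison exon, chr20:42088014-42088043, plus strand: ttgcgtgTTTTgtggccaaaccaccaccaa
SRSF11 intron 2, chr1:70696191-70696220, plus strand: tgTTTcTTTTgtctgTTTcTTTTTcTTTca

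The other poison introns varied. In SRSF4 intron 1 the 3 exons make up 2.34% of the length. They held 65 of 1279 Total reads (5.1%, 4.0 to 6.4), 61 of them in the exon at chr1:29492402-29492576, and 14 of 539 (2.6%) and 57 of 5937 (0.96%) in HuR. Total was thus above the share of length there too, and HuR replicate 2 below it. In SRSF10 intron 2 they held 17 of 411 reads in Total, 3 of 107 and 43 of 706 in HuR, and 14 of 29 in G20. In SRSF11 intron 2 HuR replicate 2 had the larger share, 246 of 1525 (16.1%), against 3 of 158 in replicate 1 and 4 of 295 in Total. Of the 246, 188 lay in the exon beside the pyrimidine stretch, which had 1 read in replicate 1 and 0 in Total. SRSF9 intron 2 had 2 of 83 Total reads in its exon and SRSF3 intron 2 had 0 of 31.

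Among the introns without an annotated poison exon, SRSF5 intron 5 (chr14:70235969-70237183) took most of its gene's intron reads, 59 of 72 and 668 of 725 in HuR and 114 of 154 in Total. Intron 1 of SRSF11 took 227 of 506 and 2549 of 5212 in HuR, and 485 of 1035 in Total. When introns were tested one by one over all genes, 0 of 41 SR introns were called between HuR and background with edgeR, as were 0.0% of 81524 introns. At an unadjusted p under 0.05 there were 11 SR introns, against 17.0% of all introns, while DESeq2 called 3, against 4.51% of all introns, and edgeR without TMM factors called 20, against 38.5%.

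The last comparison was how much of the HuR signal on SR genes lay where background slices also had sites. Background sites were pooled over the 3 slices. In HuR replicate 1, 47.1% (45.4 to 48.8) of SR reads were at sites that overlapped a background site by at least 1 bp on the same strand, and in replicate 2 it was 57.2% (56.7 to 57.7). Over all protein-coding genes the shares were 50.2% and 24.7%. Counted as sites, 26.8% and 25.1% overlapped in the SR genes and 9.1% and 8.5% over all genes. The SR genes were thus above the all-gene share in sites in both replicates and in reads in replicate 2 only. Their site shares were 13.8% and 12.6% without G20, 27.3% and 10.2% with sites of at least 5 reads and 22.4% and 7.2% with clusters. The all-gene shares were not computed under these alternatives.

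By region, almost all HuR coding reads overlapped background, 96.5% and 97.2%. In 3'UTRs it was 67.0% and 75.4%, in 5'UTRs 91.7% (of 12 reads) and 86.7% (of 60), and in introns 33.4% and 42.1%. Among the genes SRSF1 was highest, at 79.5% and 88.0%, followed by SRSF6 at 69.3% and 78.8%. SRSF11 and SRSF4 were lowest in replicate 1, at 29.2% and 33.9%, with 40.3% and 40.8% in replicate 2. SRSF2 was as low in replicate 2, at 40.4%.

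**Figure D5:**
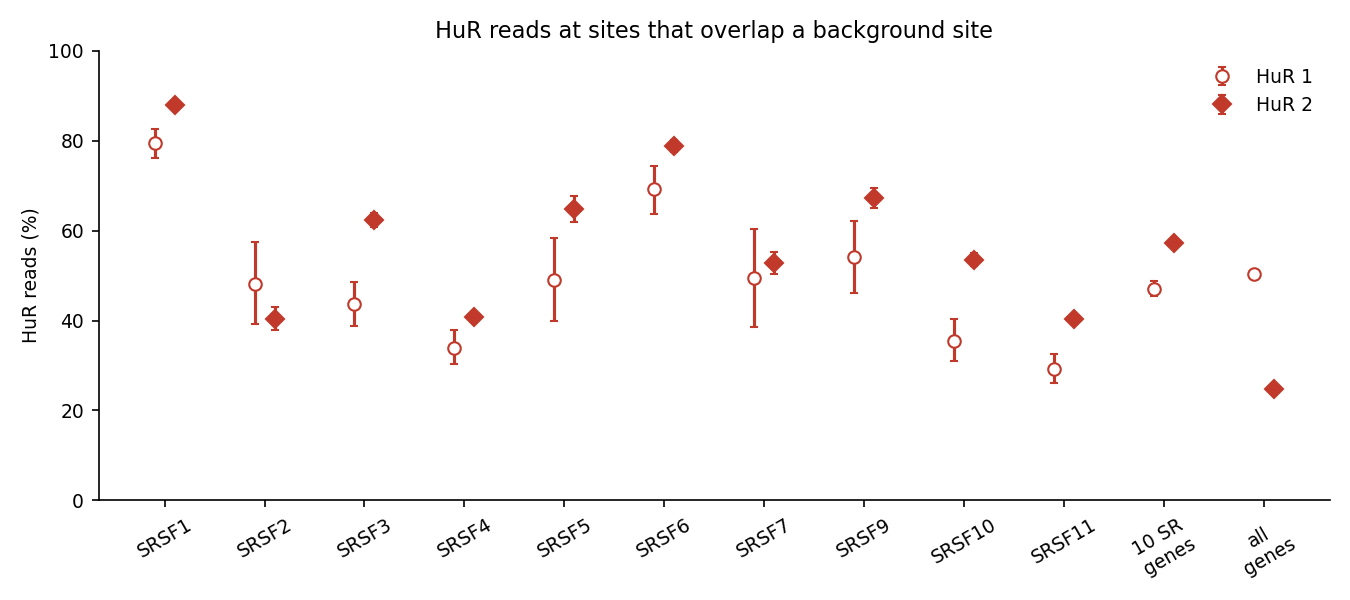
Share of HuR reads (%) at sites that overlap a site of any background slice, for each SR gene, the 10 genes together and all protein-coding genes. Open circles are HuR replicate 1 and filled diamonds replicate 2, with 95% Wilson intervals. SRSF1 lies highest, at 79.5% and 88.0%, and the 10 genes together (47.1% and 57.2%) lie above all genes (24.7%) in replicate 2 but not in replicate 1 (50.2%).

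The overlapping sites of SR genes were converted as often as the others. HuR replicate 1 had 96.4 T-to-C events per 100 reads at overlapping and 97.0 at other SR sites, and replicate 2 had 103 and 105. Over all protein-coding genes overlapping sites had fewer events, 40.8 against 83.3 in replicate 1 and 90.5 against 99.6 in replicate 2. Over all SR sites the events per 100 reads were 23.4 in G20, 80.3 in G35, 60.2 in G45, 96.8 and 104 in HuR and 17.7 in Total. G20 was thus near Total, and G35 and G45 lay between Total and HuR.

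Merged over the libraries, the SR genes had 2051 loci with a median length of 29 bp, of which 717 had reads in both HuR replicates and 466 in at least 1 slice. All 3 slices had reads at 51 loci, namely 21 of 102 coding, 18 of 366 3'UTR, 10 of 1239 intron and 2 of 14 5'UTR loci. Each of these 51 also had a HuR read, as did 1687 of all 2051 loci, and 34 of the 51 had reads in all 6 libraries. SRSF1 and SRSF6 had 9 loci each with reads in all 3 slices. The strongest in SRSF1 by background RPM were in its 3'UTR, among them one with 9, 14 and 47 reads in the slices, 95 and 1137 in HuR and 591 in Total. It is the SRSF1 locus with the highest mean RPM in HuR and in the slices (7.69), where another 3'UTR locus, with 72, 38 and 10 slice reads, came to 7.66. Its windows are printed because the HuR and background clusters of this locus were centred on different sequence.
SRSF1 3'UTR, HuR cluster, chr17:56082623-56082652, minus strand: aattgcattcttgtaatatccccttgctcc
SRSF1 3'UTR, background cluster, chr17:56082670-56082699, minus strand: tcaTTTTTTaattcaaactgTTTTgttcag

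The base content around sites differed between slices as well. It was counted in windows of the same length as those printed, but centred on the midpoint of each site. These windows were not centred on the base with the strongest conversion signal, from which a midpoint can differ. At SR sites of at least 5 reads T made up 21.1% of bases in G20, 32.5% in G35, 31.8% in G45, 37% and 35.7% in HuR and 31.1% in Total. G made up 34.8%, 25.7% and 23.4% in the slices, 19.2% and 20.0% in HuR and 16.9% in Total. The motif TTTTT, searched on the transcribed strand, was in 5.26% of windows in G20, 28.8% in G35, 25% in G45, 17.6% and 20.2% in HuR and 9.64% in Total, on 95, 66, 64, 170, 990 and 446 sites. Over all protein-coding genes it was in 2.21%, 14.4%, 20.0%, 15.0%, 25.6% and 5.4%. In coding sequence T was at 16.6% to 21.3% in the slices and at 24.6% in HuR replicate 2 (37 sites). In the SR genes TTTTT was thus no more frequent around the midpoints of HuR sites than around those of G35 and G45. The motif ATTTA went the other way, with 3.16%, 3.03% and 4.69% of the same windows in the slices. It was in 9.41% and 8.79% in HuR and 7.62% in Total. The slice values rest on 3, 2 and 3 sites. Over all protein-coding genes ATTTA was in 1.12%, 6.38% and 8.53% in the slices, 7.21% and 11.2% in HuR and 6.39% in Total. Windows centred on the conversion signal were not compared in this way. No test was made.

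Genes that act on SR proteins or beside them were compared in the same fit, as whole lists. Of 22 tested features of 8 SR protein kinase and importer genes, 2 were higher in HuR than in background and 0 lower, near the 7.66% called over all features. They were the 3'UTR of SRPK1, a kinase of SR proteins, with 36, 8 and 33 reads in the slices, 321 and 2403 in HuR and 703 in Total (2.66, SE 0.75, adjusted p = 0.0248), and the introns of TNPO3, which imports SR proteins into the nucleus, with 51, 43 and 51, then 558 and 5312, then 851 (2.64, SE 0.73, adjusted p = 0.0223). Of 62 features of 17 SR-related and partner genes, 4 were higher and 13 lower, 11 of the 13 among 17 coding sequences, where 12.7% of all coding features were called lower. The coding sequence of SNRNP70, a U1 snRNP protein, had 529, 33 and 39 reads, then 0 and 43, then 572 (-6.38, SE 1.16, adjusted p = 0.00156), and that of U2AF2, which binds the polypyrimidine tract, had 656, 25 and 63, then 7 and 33, then 836 (-6.07, SE 1.10, adjusted p = 0.00156). Of 24 features of 7 decay factor genes, which degrade transcripts with poison exons, 3 were higher and 5 lower, all 5 among 7 coding sequences and against the same 12.7%, with SMG5 at -5.47 (SE 1.04, adjusted p = 0.00178).

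The genes whose reads over the 6 libraries were most like the median SR gene were RPL34, KMT2A, RND3, TXNL4B and NIN, with distances of 0.199 to 0.280 between centred log2 levels among 17308 genes. The SR genes themselves lay between 0.490 (SRSF1) and 2.14 (SRSF2) from that median.

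Some reads cannot be placed with certainty. Readthrough coding genes share the strand of SRSF1 and SRSF6, and MIR636 lies within SRSF2. The lncRNA NRAV overlaps the span of SRSF9 on the same strand, outside its canonical transcript. Named pseudogenes exist for SRSF1, SRSF2, SRSF6, SRSF9 and SRSF10 and, with 5, most of all for SRSF3, and the authors kept only uniquely mapping reads, so exonic reads that match a pseudogene may be missing. Antisense reads were 2.16%, 5.03% and 7.56% of the reads over the SR transcripts in the slices, 3.89% and 0.895% in HuR and 3.33% in Total, and the genes MFSD11 and GATC overlap SRSF2 and SRSF9 on the opposite strand.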

How the data were processed

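HEK293 PAR-CLIP libraries were analysed for 3 background slices, 2 HuR replicates and 1 Total sample. The authors trimmed adapters, mapped reads with Bowtie (version not given in the sources used here) to hg19, ran PARalyzer on reads that mapped to a single place, allowing at most 2 T-to-C mismatches, and deposited a count of reads and of conversion events per site for each library, not normalized and not pooled. Removal of PCR duplicates is not given in the sources used here. The tables of all sites were used, and the tables of clusters of at least 5 reads served as an alternative.

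Sites were assigned by their midpoint to the canonical transcript of GENCODE on GRCh37, coding before 3'UTR before 5'UTR before intron. Reads per gene and region, and per intron, with at least 20 reads over the 6 libraries were fitted with edgeR 4.0.16 in R 4.3.3 (TMM factors, quasi-likelihood test, Benjamini-Hochberg adjusted p under 0.05), and all adjusted p-values are from this fit. DESeq2 1.42.0 was an alternative. Total has 1 library, assumed to vary like the other groups. Shares have 95% Wilson intervals, and density ratios exact binomial intervals. Other values were computed with Python 3.11.15, pandas 2.3.3, numpy 2.4.6 and scipy 1.17.1. The scripts were tested on simulated data.

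The genes and lists were chosen with earlier results of these data known. Named were all 10 genes, their most read HuR and background sites by region, each intron with a poison exon, at most 3 called genes per list with the largest fold change, and the 5 genes nearest the SR median in centred log2 level (pseudocount 1 RPM). Alternatives were the scaling, the tool, the filter, sites of at least 5 reads, clusters, all coding transcripts and leaving out each library. The alternatives for the poison exon share, the level per effective read, and the introns left out were added after seeing the data. Depth is given in the report, and a count of 0 allows 3 reads.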

Additional observations from a re-analysis of the deposited data

Results flagged for a closer look

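Reads in the gene spans but outside the canonical transcript, and reads on the opposite strand, entered no comparison. Those described here had, in RPM, a lower 95% counting bound above the highest observed slice value in each HuR replicate. The 10 most read sites of G20 took 90.6% of its sense reads in protein-coding genes, which lowers its RPM elsewhere. A slice with 0 reads still allows up to 1.26 RPM in G35 and 1.07 in G45. SRSF11 had 38.0 and 103 RPM outside its canonical transcript in HuR (mean 70.7, from 160 and 2267 reads), against at most 9.28 in a slice and 38.1 in Total. SRSF9 had 4.04 and 4.65 RPM (mean 4.34), against 0.771 in G20, 0 reads in G35 and G45, and 8.20 in Total. These were 17 and 102 reads in HuR and 16 in G20. The effective reads after TMM factors were 5521070 and 39312531 in HuR and 3954278 in G20. Per effective read, G20 thus lay above both HuR replicates for SRSF9. The lncRNA NRAV overlaps that part of the SRSF9 span on the same strand, and its part in these reads was not tested. SRSF6 had 2.14 and 5.61 RPM (mean 3.87), against 0.289 in G20, 0 reads in G35 and G45, and 2.89 in Total. It had 9 and 123 such reads in HuR and 6 in G20, so per effective read replicate 1 lay close to G20. On the strand opposite SRSF6, HuR had 1.43 and 0.501 RPM (mean 0.964, from 6 and 11 reads), against 0.145 in G20, 0 reads in G35 and G45, and 0.231 in Total, so HuR replicate 2 lay under what 0 reads in those 2 slices allow. The G20 value came from 3 reads, so per effective read replicate 2 lay under G20 as well.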

How the results depend on the processing

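The results past the threshold kept their direction under the alternatives, but uncalled estimates did not all keep theirs. Between HuR and Total, 6 of 10 3'UTR estimates changed sign with DESeq2 and 5 of 10 intron estimates without TMM factors, and between background and Total 7 of 10 coding estimates did without TMM factors. SR features called between HuR and background (7) came to 16 with DESeq2, 1 without TMM factors, 11 without the filter, 0 with sites of at least 5 reads, 0 with clusters, and 0 to 8 when a library was left out. Those called between HuR and Total (4) came to 2 without TMM factors, 0 with sites of at least 5 reads, 0 with clusters, and 0 to 5 with a library left out. Those called between background and Total (1) came to 0 with DESeq2, 6 without TMM factors, 0 with sites of at least 5 reads, 0 with clusters, 0 with all coding transcripts, and 0 to 3 with a library left out. Single introns called (0) came to 3 with DESeq2 and 20 without TMM factors, and stayed at 0 with any library left out. For most of these settings the share of all features called is not given beside the SR count. A change in an SR count can thus not be told apart from a change of the whole fit. The HuR minus background coding share of -41.2 points ranged from -47.1 to -35.0. The mean HuR share overlapping background (52.2%) was 38.6% with sites of at least 5 reads, 32.8% with clusters, and 37.7% (without G20) to 57.2% with a library left out. The mean HuR density ratio of poison introns (2.37) was 2.89 with sites of at least 5 reads and 2.95 with clusters, and in G20 it went from 4.15 to 34.8 with sites of at least 5 reads and had no reads in other introns with clusters. The mean HuR share in poison exons (4.95%) was 5.61% for sites touching the exon. It was 3.62% with sites of at least 5 reads, 2.66% with clusters and 4.48% without SRSF3 intron 3. Without SRSF4 intron 1 it was 8.25%, against 31.7% in Total. The exons make up 2.34% of that intron, so they cover more than 8.0% of the length of the rest. The share of G20 (17.0%, above the exons' 8.0% of length) was 10.7% with sites of at least 5 reads and 0% with clusters. The 5.47-fold level was 1.74-fold per effective read. The causes were not tested. No paired analysis was possible because the labels give the slices no replicate numbers and the slices are parts of 1 gel.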
